A study of Homo sapiens with 18 samples.

Results

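The genes described are 9 direct targets of the tumour suppressor p53: CDKN1A, MDM2, AEN, BBC3, BAX, FAS, RRM2B, ZMAT3 and GDF15. They were chosen by symbol from the 27130 gene symbols of the deposited count tables, and all 9 were present and passed the filter on low counts in every comparison. RNA-seq compared the wild-type H1 and H9 cell lines, which were established from human embryos and are pluripotent, with clones in which Cas9 had knocked out ZNF263. ZNF263 encodes a transcription factor with zinc fingers, and the study's question is its part in pluripotency. The replicated groups held 3 libraries each: H1 clone 1-10 (homozygous knockout) with H1 wild type, and H9 clones 9-1 and 9-D (both homozygous knockouts) with H9 wild type. Clone 1-5 (heterozygous knockout), clone 1-10 and wild type of H1 were also sequenced as 1 unreplicated library each. The labels name no treatment and no other allele. Each knockout group is 1 clone, so what the knockout does and what 1 clone carries cannot be told apart within a group. The edited part of ZNF263, and whether the replicates were separate cultures, are not given in the labels, so p-values measure the spread between these libraries, which may be technical.

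The p53 protein binds DNA as a tetramer at paired decamer sites and raises the transcription of genes that stop the cell cycle, repair DNA, change metabolism or start apoptosis. MDM2, itself a p53 target, is the ubiquitin ligase that marks p53 for degradation and so closes a feedback loop. Human pluripotent stem cells keep p53 under tight control, and their p53 response to DNA damage leans to apoptosis and loss of pluripotency. Several p53 targets, GDF15 among them, also answer to other pathways, such as the integrated stress response.

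The promoters of the 4 genes that passed the test in H9, where 29.7% of all genes tested did, are shown because the results turn on them. Each window runs 5′ to 3′ on the gene's strand from 250 bases before to 50 bases after a RefSeq start (GRCh38.p14). Capitals in the windows of AEN (chr15:88621090-88621389, plus strand) and MDM2 (chr12:68808767-68809066, plus strand, 1 of 4 listed MDM2 starts) mark a match to the p53 consensus. Capitals in the windows of CDKN1A (chr6:36678464-36678763, plus strand) and GDF15 (chr19:18385908-18386207, plus strand) mark GGGAGGA or its reverse complement, the core of the GA-rich motif known for ZNF263.
AEN: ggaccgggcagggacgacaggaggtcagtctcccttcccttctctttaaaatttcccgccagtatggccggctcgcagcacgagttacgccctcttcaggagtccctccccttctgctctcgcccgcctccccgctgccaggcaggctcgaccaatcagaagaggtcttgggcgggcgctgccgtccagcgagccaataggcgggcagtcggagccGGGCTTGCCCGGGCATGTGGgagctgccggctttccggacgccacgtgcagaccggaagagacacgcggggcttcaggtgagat
MDM2: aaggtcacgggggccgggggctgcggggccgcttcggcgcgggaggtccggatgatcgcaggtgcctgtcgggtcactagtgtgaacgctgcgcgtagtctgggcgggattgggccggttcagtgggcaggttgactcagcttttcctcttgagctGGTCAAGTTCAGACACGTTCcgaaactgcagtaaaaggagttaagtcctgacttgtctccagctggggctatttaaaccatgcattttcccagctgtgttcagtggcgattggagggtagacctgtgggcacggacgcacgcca
CDKN1A: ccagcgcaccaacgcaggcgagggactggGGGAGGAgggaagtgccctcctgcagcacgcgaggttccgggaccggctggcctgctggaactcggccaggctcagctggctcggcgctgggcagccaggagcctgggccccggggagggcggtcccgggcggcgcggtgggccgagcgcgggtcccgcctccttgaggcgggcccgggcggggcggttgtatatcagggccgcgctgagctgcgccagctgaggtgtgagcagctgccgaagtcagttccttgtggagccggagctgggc
GDF15: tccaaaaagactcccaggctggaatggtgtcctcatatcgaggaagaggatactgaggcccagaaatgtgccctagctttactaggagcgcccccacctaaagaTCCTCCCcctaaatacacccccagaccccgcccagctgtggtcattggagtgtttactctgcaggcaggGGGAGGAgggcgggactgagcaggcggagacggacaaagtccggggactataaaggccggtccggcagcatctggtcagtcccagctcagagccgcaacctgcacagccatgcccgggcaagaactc

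The p53 consensus was searched as 2 decamers without a spacer, 20 bases in all, with the 4 core C and G bases exact and up to 2 mismatches elsewhere. It is its own reverse complement, so 1 search covered both strands. Among 14 windows of 8 of the genes, 4 windows of 3 genes (AEN, MDM2 and FAS) held a match, against 0.285% of 35116 promoter windows of all genes. Of these 4 windows, 2 belong to nearby MDM2 starts and hold the same site. The genes were chosen as known p53 targets, so the higher share is a description and not a test. The match began 34 bases before the AEN start and 94 bases before the MDM2 start shown. The MDM2 match lies before its downstream start, the promoter known as the p53-responsive one. GGGAGGA, searched on both strands, was in 2 of the 14 windows, near the 18.1% of all windows. These 2 are the windows of CDKN1A, 221 bases before the start, and of GDF15, 146 and 77 bases before it. These are matches of letters, and no binding was measured in these libraries. The known p53 sites of CDKN1A lie further upstream than this window.

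ZNF263 itself was lower in every knockout group but still read. It had 32.2, 33.3 and 36.1 TMM-scaled CPM (counts scaled to a common library size) in H1 clone 1-10, against 40.4, 42.0 and 39.6 CPM in H1 wild type. In H9 it averaged 36.0 ± 1.30 CPM over both clones (SD, n = 6) and 42.3 ± 2.27 CPM in wild type (SD, n = 3). Log2 fold changes were -0.27 in H1 and -0.23 in H9 (quasi-likelihood test of edgeR, Benjamini-Hochberg adjusted p = 0.0156 and 0.00459; written below as edgeR adjusted p). In H1 it passed in 4 of 6 fits that left out 1 library, and the call was lost without the second H1 wild-type library and without the first clone 1-10 library, with edgeR adjusted p up to 0.0971. Because the edited part of the gene is not given, reads from outside it cannot check the knockout. Library totals were 9.66 to 21 M counts over all 18 libraries, and a count of 0 would allow up to 0.310 CPM in the shallowest. Markers of pluripotent cells summed to 7546 to 7931 CPM in H1 clone 1-10 against 6833 to 7283 CPM in H1 wild type, and to 6630 to 6924 CPM in the H9 clones against 5770 to 5892 CPM in H9 wild type. The 7 fibroblast markers summed to 566.9 to 684.5 CPM in H1 clone 1-10 against 612.4 to 644.5 CPM in H1 wild type, and to 748.4 to 820.2 CPM in clone 9-1 and 840.4 to 919.1 CPM in clone 9-D against 831.9 to 875.8 CPM in H9 wild type. Of 5 tested in H1, COL3A1 and COL1A2 fell (-1.67 and -0.28), where 7.25% of all genes tested were called lower. Of 4 tested in H9, COL1A1 rose by 0.60 and COL1A2, THY1 and POSTN fell (-0.25, -0.23 and -1.24). Over all genes tested in H9, 14.3% were called higher and 15.3% lower. COL1A2 did not pass in clone 9-D alone (-0.14, edgeR adjusted p = 0.137), and DESeq2 called 1 fibroblast marker higher and 2 lower in H9. The part of these markers in the results was not tested.

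CDKN1A moved in opposite directions in the 2 lines. It encodes p21, the cyclin-dependent kinase inhibitor through which p53 stops the cell cycle. It fell in H1 clone 1-10 to 10.6, 12.2 and 10.1 CPM, against 15.3, 15.2 and 15.5 CPM in H1 wild type. All 3 knockout libraries lay below all 3 wild-type libraries. The log2 fold change was -0.47 ± 0.11 (SE), which is 0.723 of the wild-type level (edgeR adjusted p = 0.00504). In H9 it rose to 16.2, 15.5 and 15.6 CPM in clone 9-1 and to 14.3, 15.4 and 17.8 CPM in clone 9-D, against 11.99, 11.7 and 11.04 CPM in wild type. Every knockout library was above every wild-type library here. The log2 fold change over both H9 clones was 0.45 ± 0.09 (SE), a 1.37-fold rise (edgeR adjusted p = 0.000300). CDKN1A shares 32 exon bases with an antisense transcript, DINOL, which is not in the count tables, and reads of the pair cannot be told apart if strand was not used in counting. Each clone on its own gave 0.45, against the same 3 wild-type libraries (edgeR adjusted p = 0.00148 for 9-1 and 0.00135 for 9-D).

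**Figure D1:**
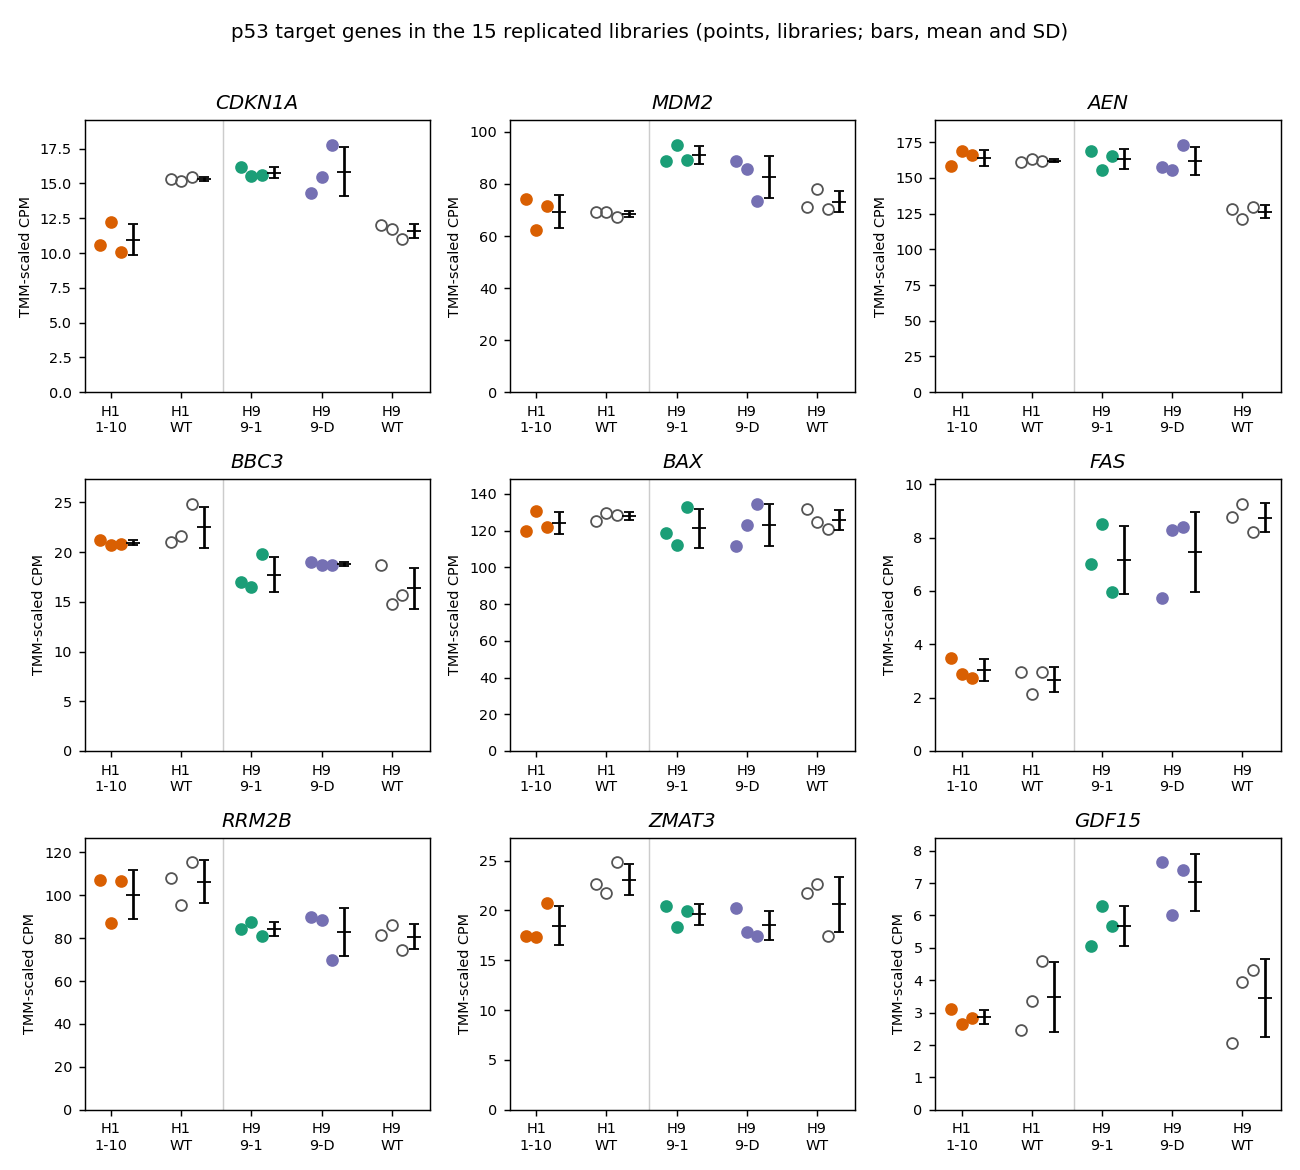
Level of each of the 9 p53 target genes in the 15 replicated libraries, in TMM-scaled CPM (y axes start at 0; scaled within each line). Points are libraries and bars the mean and SD of 3 libraries, with knockout groups left of the wild type (WT) of their line; CDKN1A sits at 10.1 to 12.2 CPM in H1 clone 1-10 below its wild type, and at 14.3 to 17.8 CPM in the H9 clones above theirs.

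The difference between the lines was itself tested in 1 fit of 15 libraries. For CDKN1A the knockout effect in H9 minus that in H1 was 0.91 on the log2 scale (95% interval 0.63 to 1.20, edgeR adjusted p = 1.01e-05). With all libraries on 1 scale, CDKN1A averaged 11.1 ± 1.15 CPM in H1 clone 1-10 and 15.4 ± 0.142 CPM in H1 wild type (SD, n = 3 each). On that scale it averaged 15.7 ± 0.340 CPM in clone 9-1, 15.8 ± 1.71 CPM in clone 9-D and 11.5 ± 0.486 CPM in H9 wild type (SD, n = 3 each). The H1 clone was thus near H9 wild type, and the H9 clones near H1 wild type. The labels do not say whether the lines were processed together, so line and processing cannot be told apart in such levels. The H1 effect comes from 1 clone, so line and clone cannot be told apart in the difference.

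Markers of differentiation also moved, and which of them edgeR called was not the same in the 2 lines. The 4 primitive streak markers (T, MIXL1, EOMES and GSC) summed to 3.52 to 8.07 CPM in H1 clone 1-10, against 17.9 to 18.7 CPM in H1 wild type. The 4 neuroectoderm markers (PAX6, SIX3, RAX and SOX1) summed to 4.93 to 7.27 CPM in the clone, against 17.9 to 22.7 CPM in wild type. In H9 the streak sums were 2.75 to 18.8 CPM in clone 9-1 and 3.70 to 10.8 CPM in clone 9-D, against 4.19 to 7.96 CPM in wild type, so these groups overlapped. Neuroectoderm sums in H9 were 0.907 to 2.91 CPM in 9-1 and 1.27 to 1.58 CPM in 9-D, against 2.49 to 4.01 CPM in wild type. With edgeR, 3 of 3 streak and 3 of 4 neuroectoderm markers fell in H1, where 7.25% of all genes tested were called lower. DESeq2 called 2 and 3 lower there. In H9, 0 of 3 and 0 of 1 passed with edgeR. That 1 neuroectoderm marker, PAX6, gave -0.61, and DESeq2 called 1 neuroectoderm marker lower in H9. In the test of the difference between lines, edgeR called 3 of 4 streak markers (DESeq2 1) and 0 of 4 neuroectoderm markers. Over all genes tested, 8.73% were called in that test. The 3 endoderm markers (SOX17, FOXA2 and GATA6) summed to 3.68 to 5.87 CPM in H1 clone 1-10, against 4.75 to 7.99 CPM in H1 wild type. In H9 they summed to 1.93 to 5.39 CPM in clone 9-1 and 2.43 to 4.47 CPM in clone 9-D, against 0.802 to 1.49 CPM in wild type. SOX17 fell in H1 with edgeR (-1.59), while DESeq2 called 0 endoderm markers lower there. The other endoderm marker tested in H1 read -0.03 and did not pass. FOXA2 and GATA6 rose in H9 (1.85 and 1.43). The 5 trophoblast and amnion markers summed to 4.96 to 5.52 CPM in H1 clone 1-10, against 9.49 to 10.4 CPM in H1 wild type. Their sums in H9 were 5.53 to 6.88 CPM in clone 9-1 and 5.49 to 8.38 CPM in clone 9-D, against 8.36 to 8.79 CPM in wild type. KRT7, a keratin of this list, fell in both lines (-0.95 in H1, -0.64 in H9). GATA3, the other marker of this list tested in H9, went the other way and did not pass. Its log2 fold change was 0.61 in 9-1 and 0.84 in 9-D (edgeR adjusted p = 0.381 and 0.205). DESeq2 called 1 marker of the list higher and 1 lower over both H9 clones. The part of these markers in the CDKN1A results was not tested. In bulk RNA, fewer cells of a type and less RNA per cell cannot be told apart.

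MDM2, the feedback ligase, rose in H9 and gave no called difference in H1. It had 74.3, 62.4 and 71.5 CPM in H1 clone 1-10, against 69.2, 69.1 and 67.1 CPM in H1 wild type. The groups overlapped, and the log2 fold change of 0.02 had a 95% interval of -0.12 to 0.15 (edgeR adjusted p = 0.914). In H9 it had 88.9, 95.1 and 89.1 CPM in clone 9-1 and 89.0, 85.6 and 73.5 CPM in clone 9-D, against 71.3, 77.9 and 70.5 CPM in wild type. The third library of 9-D lay inside the wild-type range, and the other 5 knockout libraries lay above it. Over both clones the log2 fold change was 0.25 ± 0.06 (SE, edgeR adjusted p = 0.00325). Clone 9-1 alone passed with 0.32 (edgeR adjusted p = 0.000512), and clone 9-D gave 0.18 and did not pass (edgeR adjusted p = 0.0588). Without the third 9-D library, this clone gave 0.26 and passed (edgeR adjusted p = 0.00368). The clones were not shown to differ, since 9-D minus 9-1 was -0.14 (unadjusted p = 0.0440, edgeR adjusted p = 0.734). MDM2 shares 439 exon bases with AC025423.2 on its own strand and 785 with the antisense AC025423.4, and neither is in the count tables. Reads of these shared bases cannot be told apart on the same strand, nor on the other if strand was not used in counting.

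AEN, the gene of a nuclease that takes part in p53-dependent apoptosis, was the most precisely measured rise among the 9 genes. In H9 it had 169, 156 and 166 CPM in clone 9-1 and 157, 155 and 173 CPM in clone 9-D, against 128, 121 and 130 CPM in wild type. The lowest knockout library was above the highest wild-type library. The log2 fold change was 0.36 ± 0.05 (SE), a 1.29-fold rise (edgeR adjusted p = 1.79e-06), and the clones gave 0.37 and 0.36. In H1 it had 158, 169 and 166 CPM in clone 1-10, against 161, 163 and 162 CPM in wild type. These groups overlapped, with a log2 fold change of 0.02 (95% interval -0.09 to 0.13, edgeR adjusted p = 0.876). The effect in H9 exceeded that in H1 by 0.34 on the log2 scale (edgeR adjusted p = 0.00111). On the joint scale, AEN averaged 166 CPM in H1 clone 1-10, 163 CPM in H1 wild type, 163 CPM in clone 9-1, 161 CPM in clone 9-D and 125 CPM in H9 wild type. H9 wild type was the group that stood apart.

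GDF15, a secreted stress cytokine of the TGF-beta family, had the largest fold change of the 9 genes in H9 and is read at low depth. It had 5.06, 6.30 and 5.67 CPM in clone 9-1 and 7.64, 6.02 and 7.40 CPM in clone 9-D, against 2.07, 3.94 and 4.32 CPM in H9 wild type. These values rest on 622 counts over the 6 knockout libraries and 159 counts over the 3 wild-type libraries. The knockout libraries were all above wild type, whose own lowest and highest libraries differed widely. The log2 fold change was 0.89 ± 0.18 (SE), a 1.85-fold rise (edgeR adjusted p = 0.000261). Clone 9-1 gave 0.73 (edgeR adjusted p = 0.00402) and clone 9-D gave 1.03 (edgeR adjusted p = 6.11e-05). The call in 9-1 was lost without the first H9 wild-type library, the one at 2.07 CPM (log2 fold change 0.46, edgeR adjusted p = 0.0691). In H1 it had 3.11, 2.65 and 2.83 CPM in clone 1-10, against 2.48, 3.36 and 4.60 CPM in wild type, with overlap and a log2 fold change of -0.29 (edgeR adjusted p = 0.449). The effect in H9 minus that in H1 was 1.17 (95% interval 0.56 to 1.79, edgeR adjusted p = 0.00905). That call was lost without the third H1 wild-type library, the one at 4.60 CPM (0.93, edgeR adjusted p = 0.0769).

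ZMAT3, which encodes an RNA-binding zinc finger protein that acts downstream of p53, fell in H1. It had 17.4, 17.3 and 20.8 CPM in clone 1-10, against 22.7, 21.8 and 24.8 CPM in H1 wild type. The groups did not overlap, and the log2 fold change was -0.34 ± 0.10 (SE, edgeR adjusted p = 0.0201). This call was the least stable of the 9 genes: adjusted p was 0.0758 with DESeq2. With edgeR, adjusted p was 0.134 without the third wild-type library, 0.105 without the first clone library and 0.0617 without the second. In H9 it had 20.4, 18.4 and 19.99 CPM in clone 9-1 and 20.2, 17.8 and 17.4 CPM in clone 9-D, against 21.8, 22.6 and 17.5 CPM in wild type. These groups overlapped, with a log2 fold change of -0.11 (edgeR adjusted p = 0.349). The difference between the lines, 0.22, did not pass (95% interval -0.05 to 0.49, edgeR adjusted p = 0.361).

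BBC3 and BAX are the mitochondrial arm of p53-dependent apoptosis: BBC3 encodes PUMA, which frees BAX, the protein that opens the outer membrane. BBC3 had 21.3, 20.8 and 20.9 CPM in H1 clone 1-10, against 21.003, 21.6 and 24.9 CPM in H1 wild type. In H9 it had 17.0, 16.5 and 19.8 CPM in clone 9-1 and 19.0, 18.7 and 18.7 CPM in clone 9-D, against 18.7, 14.7 and 15.7 CPM in wild type. The 3 libraries of 9-D were just above wild type, and those of 9-1 overlapped with it. Log2 fold changes were -0.10 in H1 and 0.15 over both H9 clones, and neither passed (edgeR adjusted p = 0.521 and 0.201). BAX had 120, 131 and 122 CPM in H1 clone 1-10, against 125, 130 and 128 CPM in H1 wild type. It had 118, 112 and 133 CPM in clone 9-1 and 111, 123 and 135 CPM in clone 9-D, against 132, 125 and 121 CPM in H9 wild type. BAX was among the tightest results, with a log2 fold change of -0.04 in H1 (95% interval -0.16 to 0.07) and -0.05 in H9 (95% interval -0.16 to 0.07).

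FAS, the death receptor of the extrinsic pathway, and RRM2B, a ribonucleotide reductase subunit that supplies nucleotides for DNA repair, did not pass in either line. FAS had 3.49, 2.88 and 2.73 CPM in H1 clone 1-10, against 2.95, 2.13 and 2.95 CPM in H1 wild type. In H9 it had 6.99, 8.50 and 5.95 CPM in clone 9-1 and 5.72, 8.29 and 8.38 CPM in clone 9-D, against 8.75, 9.27 and 8.20 CPM in wild type. Groups overlapped in both lines, and FAS read higher in every H9 library than in any H1 library. Its intervals were wide, from -0.26 to 0.66 in H1 and from -0.51 to 0.01 in H9 on the log2 scale. RRM2B had 107, 87.1 and 106 CPM in H1 clone 1-10, against 108, 95.5 and 115 CPM in H1 wild type. It had 84.5, 87.3 and 81.1 CPM in clone 9-1 and 89.9, 88.5 and 69.9 CPM in clone 9-D, against 81.6, 86.1 and 74.6 CPM in H9 wild type. Its log2 fold changes were -0.09 in H1 and 0.05 in H9 (edgeR adjusted p = 0.470 and 0.607).

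**Figure D2:**
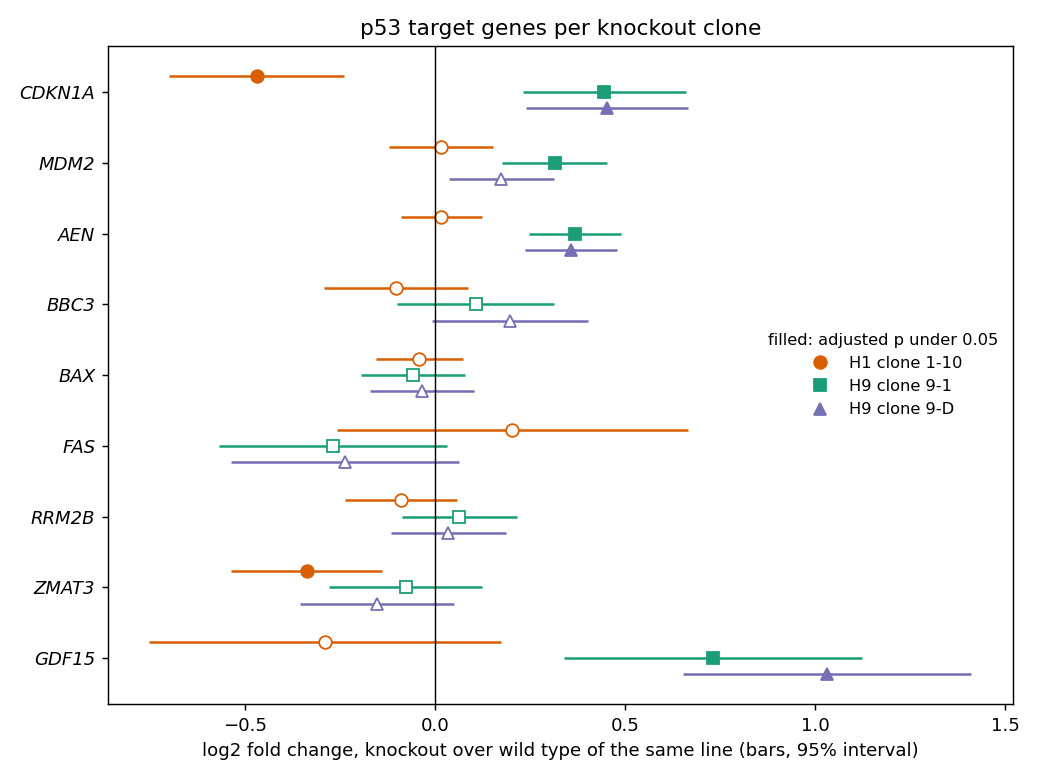
Log2 fold change of each p53 target gene, knockout over wild type of the same line (x axis), for H1 clone 1-10, H9 clone 9-1 and H9 clone 9-D, with 95% intervals as bars. Filled symbols passed the test; CDKN1A lies at -0.47 in H1 clone 1-10 and at 0.45 in both H9 clones, which share 1 wild-type group.

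Counted together, 2 of the 9 genes fell in H1 (CDKN1A and ZMAT3), where 12.3% of 14897 genes tested were called, 5.01% higher and 7.25% lower. In H9, 4 of the 9 rose over both clones (CDKN1A, MDM2, AEN and GDF15), where 29.7% of 15411 genes tested were called, 14.3% higher and 15.3% lower. By clone, 4 rose in 9-1 and 3 in 9-D. In either direction, 26.3% of the 15411 genes tested were called in 9-1 and 23.5% in 9-D, with 1962 and 1768 genes higher. The 5 genes not called in H9 had log2 fold changes of -0.25 to 0.15. Between 9-D and 9-1, edgeR called 0 of the 9 genes and DESeq2 0, while 1 gene (MDM2) had an unadjusted p under 0.05; over all genes 0.305% were called. Groups did not overlap for 2 of the 9 genes in H1 (29.4% of genes tested) and for 3 in H9 over both clones (26.5%). By clone they did not overlap for 4 genes in 9-1 (40% of genes tested) and for 4 in 9-D (35.8%). The effects differed between the lines for 3 of the 9 genes (CDKN1A, AEN and GDF15), where 8.73% of 15802 genes tested were called. For the 6 others, the difference ran from -0.46 for FAS to 0.25 for BBC3 and did not pass.

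**Figure D3:**
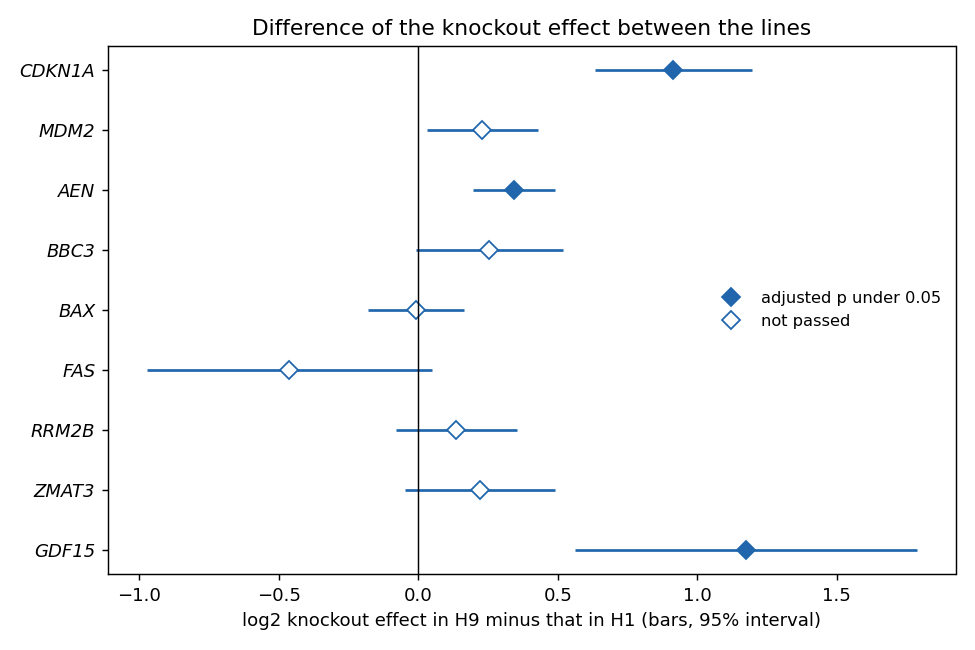
Knockout effect in H9 minus that in H1 for each p53 target gene (x axis, log2 scale), with 95% intervals as bars, from 1 fit of 15 libraries. Filled symbols passed the test; they are CDKN1A at 0.91, AEN at 0.34 and GDF15 at 1.17.

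The authors' deposited tables, made with DESeq2, list the same genes under 0.05. For H1 clone 1-10 over wild type, the authors' deposited table gives CDKN1A -0.46 (adjusted p = 0.0100) and ZMAT3 -0.32 (adjusted p = 0.0363). For both H9 clones over wild type, the authors' deposited table gives CDKN1A 0.45, MDM2 0.25, AEN 0.37 and GDF15 0.89, with adjusted p from 9.91e-12 for AEN to 0.00251 for MDM2.

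The set of single H1 libraries, for which no test is possible, gave another reading of the H1 wild type. CDKN1A had 9.94 CPM in clone 1-5 and 10.5 CPM in clone 1-10, against 11.1 CPM in wild type (131, 141 and 124 counts; here CPM of the library total). The ratio of clone 1-10 to wild type was 0.946, with a 95% interval of 0.738 to 1.21 that covers counting error only. The single wild-type library thus read near the clones, and below the 15.2 to 15.5 CPM of the replicated wild type. Streak markers in this set summed to 3.34 CPM in clone 1-5 and 2.84 CPM in clone 1-10, against 1.97 CPM in wild type. Neuroectoderm markers summed to 8.04 CPM in clone 1-5 and 6.64 CPM in clone 1-10, against 8.71 CPM in wild type. ZMAT3 had 14.3 CPM in clone 1-5 and 18.2 CPM in clone 1-10, against 16.1 CPM in wild type. Its ratio in clone 1-10 was 1.13, with a 95% interval of 0.931 to 1.38. MDM2 had 59.6 CPM in clone 1-5 and 60.9 CPM in clone 1-10, against 53.5 CPM in wild type. Its ratio in clone 1-10 was 1.14, with a 95% interval of 1.02 to 1.27. FAS had 28 counts in clone 1-5 and 25 in clone 1-10, against 38 in wild type. Its ratio in clone 1-10 was 0.547, with a 95% interval of 0.317 to 0.931. The replicated H1 libraries had FAS the other way, at a log2 fold change of 0.20 that did not pass. These intervals too cover counting error only. The 5 other genes had ratios of clone 1-10 to wild type from 0.783 for GDF15 to 1.02 for AEN.

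Among 64 other p53 targets, all in the tables, 62 were tested. In H1, 2 rose and 7 fell, with a median log2 fold change of -0.11 against 0.00 over all genes tested. In H9, 10 rose and 9 fell, with a median of -0.00, the same as over all genes. The shares called, 9 of 62 in H1 and 19 of 62 in H9, are near the 12.3% and 29.7% of all genes. These lists were chosen with results of these data known.

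Among 10 other targets that act in cell cycle arrest, BTG2, an antiproliferative gene, fell in H1 to 4.92 ± 0.367 CPM in clone 1-10, against 7.82 ± 0.452 CPM in wild type (SD, n = 3 each; log2 fold change -0.66). In H9, 3 of the 10 rose, where 14.3% of all genes tested were called higher. They were PLK2 and PLK3, kinases of the stress response, and PRDM1, a transcriptional repressor. PLK2 averaged 18.7 ± 1.18 CPM over the clones (SD, n = 6) and 13.1 ± 2.50 CPM in wild type (SD, n = 3; log2 fold change 0.51, edgeR adjusted p = 0.000148). The classic targets in this list did not all follow: CCNG1, the cyclin G1 gene, averaged 373 ± 20.9 CPM over the H9 clones (SD, n = 6) and 378 ± 14.4 CPM in wild type (SD, n = 3). Among 13 tested apoptosis genes, PERP, a desmosomal membrane protein that takes part in apoptosis, rose in H1 by 0.40 (edgeR adjusted p = 1.71e-05). In H9, PMAIP1, which encodes the BH3-only protein NOXA, rose by 0.29 and PHLDA3, an AKT inhibitor, by 0.21. PHLDA3 did not pass in clone 9-1 alone (edgeR adjusted p = 0.0931). PIDD1 fell in H9 by 0.30. The death receptor gene TNFRSF10B was called lower over both H9 clones (-0.13, edgeR adjusted p = 0.0481), but in neither clone alone (edgeR adjusted p = 0.0655 in 9-1 and 0.160 in 9-D).

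Among 8 DNA repair and replication genes, POLH, a translesion polymerase, fell in H1 with edgeR (log2 fold change -0.41, adjusted p = 0.0309) but was not called by DESeq2 (adjusted p = 0.108). RPS27L and TRIM22 rose over both H9 clones by 0.22 and 0.17. RPS27L did not pass in 9-1 alone (edgeR adjusted p = 0.0897), and TRIM22 did not in 9-D alone (edgeR adjusted p = 0.392). Among 15 tested metabolic and redox genes, 1 rose and 2 fell in H1, and 3 rose and 1 fell in H9. Over all genes tested, 12.3% were called in H1 and 29.7% in H9, in either direction. SAT1, a polyamine-degrading enzyme, took opposite directions in the lines, with -0.42 in H1 and 0.19 in H9. Its difference between the lines was 0.61 (edgeR adjusted p = 0.000562). Unlike CDKN1A, SAT1 passed in clone 9-D alone (0.23, edgeR adjusted p = 0.0294) but not in 9-1 (0.15, edgeR adjusted p = 0.182). SESN2, a sestrin that restrains mTORC1, rose in H9 to 50.1 ± 2.87 CPM over the clones (SD, n = 6), against 38.5 ± 2.31 CPM in wild type (SD, n = 3). ABHD4 rose in both lines (0.37 in H1, 0.22 in H9) and CMBL fell in both (-0.29 in H1, -0.44 in H9).

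Of the 16 targets that encode secreted, surface and other proteins, 3 fell and 13 did not pass in H1, where 7.25% of all genes tested were called lower. In H9, 6 fell and 10 did not pass, where 15.3% of all genes were called lower. The list's median log2 fold change was -0.24 in H1 and -0.22 in H9, and 3 and 4 of its genes had a value above 0. PLXNB2, a plexin receptor, fell to 136 ± 6.33 CPM in H1 clone 1-10, against 170 ± 2.93 CPM in H1 wild type (SD, n = 3 each). It fell in H9 to 192 ± 11.4 CPM over the clones (SD, n = 6), against 255 ± 16.5 CPM in wild type (SD, n = 3). IER5, an immediate early gene, fell by 0.35 in H1 and by 0.73 in H9. CD82 and CSF1 fell in H9 by 0.50 and 0.61.

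Among p53's own regulators, HIPK2, a kinase that phosphorylates p53, and TP73, its family member, fell in H1 (2 of 16 tested). Over all genes tested in H1, 7.25% were called lower. In H9, 2 of 17 rose and 6 fell, where 14.3% of all genes tested were called higher and 15.3% lower. PPP1R13L, the inhibitory partner iASPP, fell by 0.54 and ATR, the replication stress kinase, by 0.39. SIRT1, a deacetylase that acts on p53, rose by 0.37. ATR averaged 34.3 ± 2.07 CPM over the H9 clones (SD, n = 6) and 45.0 ± 2.31 CPM in H9 wild type (SD, n = 3).

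Cell cycle genes known to be repressed through p21 and the DREAM complex were counted in the same way. In H1, edgeR called 0 of 13, DESeq2 called 0, and 2 had an unadjusted p under 0.05, both lower. In H9, 4 of 13 were called higher and 1 lower, with a median of 0.07, where 14.3% of all genes tested were called higher and 15.3% lower. PLK1, a mitotic kinase, rose to 245 ± 6.42 CPM over the H9 clones (SD, n = 6), against 185 ± 9.78 CPM in wild type (SD, n = 3; log2 fold change 0.40). CDC20, an activator of the anaphase-promoting complex, and MYBL2, a transcription factor, rose by 0.21 and 0.16, and TOP2A, the DNA topoisomerase, fell by 0.15. MYBL2 and TOP2A did not pass in clone 9-1 alone (edgeR adjusted p = 0.0837 and 0.0590). The protein level of p21 and the cell cycle were not measured.

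The integrated stress response, whose factors ATF4 and CHOP also act on GDF15, was described by 8 genes. In H9, 6 of the 8 rose, where 14.3% of all genes tested were called higher: ATF4, ATF3, DDIT3 (the CHOP gene), TRIB3, CHAC1 and ASNS. DDIT3 averaged 8.14 ± 1.03 CPM over the H9 clones (SD, n = 6) and 4.77 ± 0.897 CPM in wild type (SD, n = 3; log2 fold change 0.77, edgeR adjusted p = 6.92e-05). CHAC1, a glutathione-degrading enzyme, averaged 38.2 ± 2.30 CPM over the clones (SD, n = 6) and 24.8 ± 2.82 CPM in wild type (SD, n = 3; log2 fold change 0.62, edgeR adjusted p = 1.01e-07). Each clone on its own also had 6 of 8 higher against the same wild-type libraries. In either direction, 26.3% of 15411 genes tested were called in 9-1 and 23.5% in 9-D, with 1962 and 1768 genes higher. In H1, where GDF15 was not called, CHAC1 and ASNS rose by 0.25 and 0.26. DDIT4, an mTORC1 inhibitor that both pathways induce, fell in H1 to 26.8 to 29.5 CPM in clone 1-10, against 63.0 to 113 CPM in wild type. The part of the stress response in the GDF15 result was not tested.

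**Figure D4:**
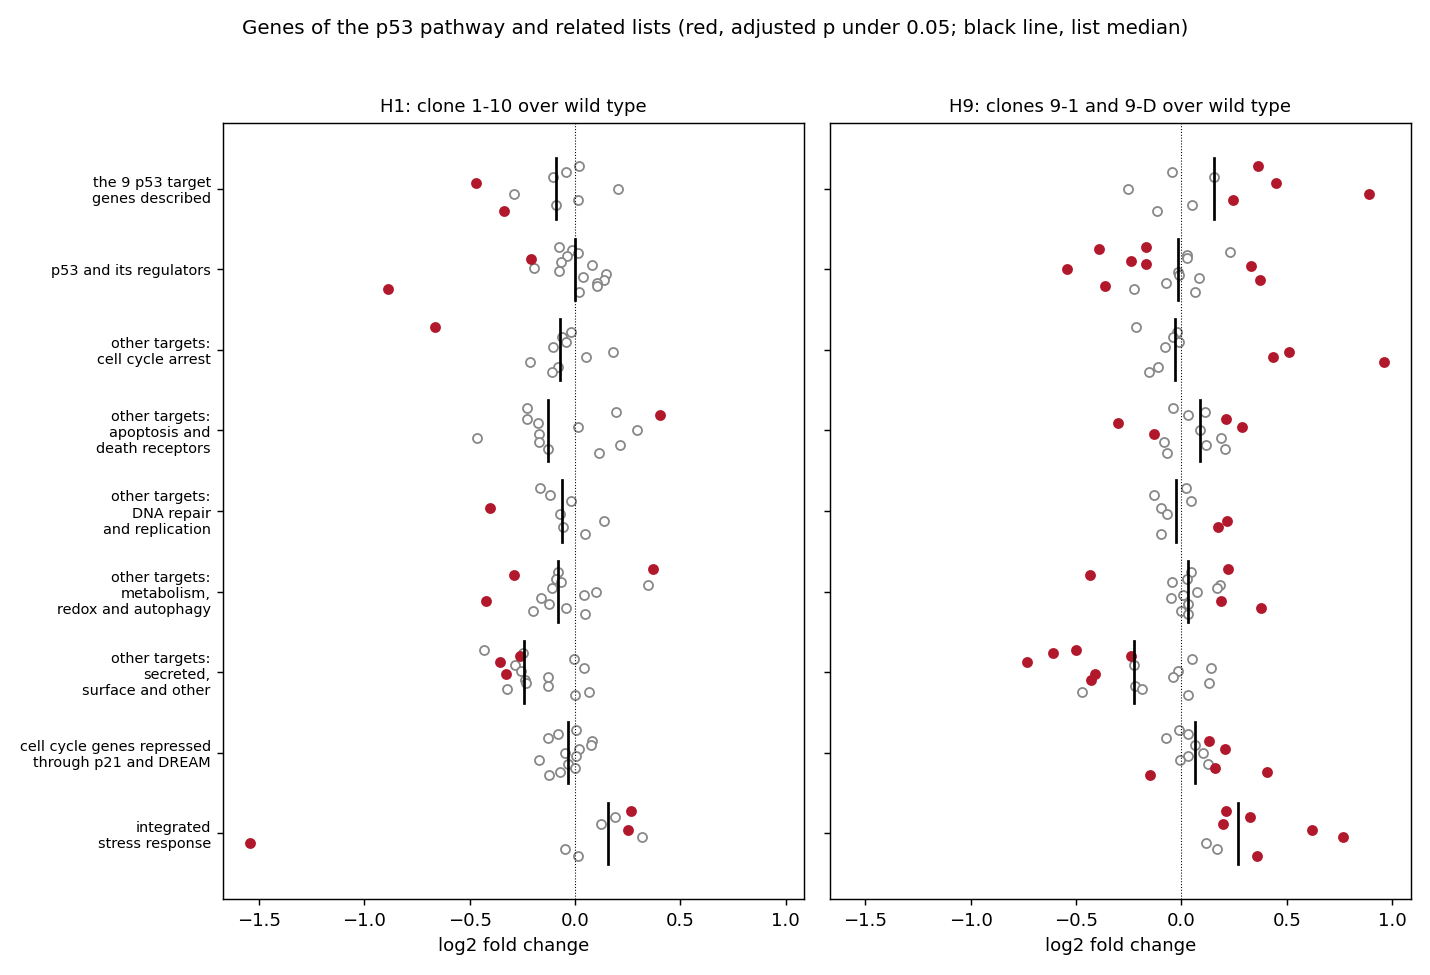
Log2 fold change of every tested gene of the p53 and related lists (x axes), for H1 clone 1-10 over wild type (left) and both H9 clones over wild type (right). Points are genes, red where adjusted p was under 0.05, and black lines are list medians; integrated stress response genes lie at 0.12 to 0.77 in H9, and the list of secreted and surface targets has a median below 0 in both lines.

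The 9 genes did not vary as a block. Likeness was measured over the 15 replicated libraries as the root mean square difference of z-scores of log2 CPM, standardised within each line, where 0 is an identical profile. The closest pair was MDM2 and RRM2B at 0.774, followed by CDKN1A and GDF15 at 0.868, and the farthest was BAX and MDM2 at 1.71. Among 15785 genes, the profile nearest to CDKN1A was that of RASIP1 at 0.227, then HPDL at 0.247 and RAB17 at 0.285, against a median of 1.32 over all genes. All 3 were called lower in H1 clone 1-10 and higher in the H9 clones: RASIP1 at -0.44 and 0.73, HPDL at -0.65 and 0.84, and RAB17 at -0.85 and 0.85. The profile nearest to MDM2 was that of C12orf29 at 0.279, then TSN at 0.354 and PPP4R3B at 0.368. These 3 were called in neither line, at edgeR adjusted p from 0.0810 to 0.988. Genes nearest to CDKN1A were picked by its profile in these same libraries, so their shared directions follow from that choice. The libraries share line, depth and group, so such likeness is a description.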

How the data were processed

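Polyadenylated RNA of 18 libraries was measured by RNA-seq. Per the labels' protocols, RNA was extracted with TRIzol and libraries were made with a NEBNext Ultra II kit. Per the submitters' processing notes, the authors used STAR, featureCounts, DESeq2 and hg19; versions, options and strand use in counting are not given in the sources used here. The authors deposited whole read counts per gene symbol, not normalized, and comparison tables with log2 fold changes and adjusted p-values by DESeq2, per the file headers. The single H1 libraries form a count table of their own.

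Counts were tested with edgeR 4.0.16 (R 4.3.3), by its quasi-likelihood F test with TMM scaling, filterByExpr by group and Benjamini-Hochberg adjustment over all genes tested, at an adjusted p of 0.05. H1 had 3 and 3 libraries, H9 had 6 knockout and 3 wild-type libraries, and the H9 clones were also fitted as 3 groups with shared wild-type libraries. The difference between lines was an interaction term over 15 libraries. Standard errors are the absolute log2 fold change over the square root of F, and 95% intervals use t quantiles of the model. CPM are TMM-scaled within each line, without gene length, so levels were not compared between genes. Intervals of the single libraries are exact Poisson or conditional binomial intervals that cover counting error only, and a count of 0 would allow 3 counts. Chi-square per gene between replicates was 1.80 to 5.61 over 15 pairs, so no library was a copy of another. Scripts were tested on simulated data.

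The genes, the lists and the comparisons were chosen with earlier results of these data known. All 9 genes and ZNF263 are named whatever their values, with up to 4 called genes per list and line of smallest adjusted p, and the 3 genes most like CDKN1A and MDM2. ATF3 and ASNS in H9, CCNG1 and the single marker genes fall outside that rule and were named after their values were seen. Alternatives were DESeq2 1.42.0, its RLE scaling within edgeR, no filter on low counts, a replicate block, the H9 clones as separate groups, and leaving out each library. Promoter windows are RefSeq's on GRCh38.p14, a later build than the hg19 of the counts; 8 of the 9 genes were used. One sequence and some genes that the rule names are not reported here.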

Additional observations from a re-analysis of the deposited data

Results flagged for a closer look

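For 3 of the 9 p53 target genes, the knockout effect differed between the lines by a test of the difference itself (edgeR's interaction term over 15 libraries). CDKN1A differed by 0.915 on the log2 scale, with all 3 clone libraries below wild type in H1 and all 6 above wild type in H9. AEN differed by 0.344, with overlapping groups in H1 and all 6 knockout libraries above wild type in H9. GDF15 differed by 1.17, with overlapping groups in H1 and all 6 knockout libraries above wild type in H9. In the joint fit, 8.73% of all genes tested were called in this comparison.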

How the results depend on the processing

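CDKN1A passed in both lines, in each H9 clone and in the difference between lines under every alternative run, and AEN in H9 and in that difference likewise. DESeq2 called 1210 genes in H1 (569 higher, 641 lower) against 1827 with edgeR, and 1 of the 9 genes against 2. Leaving out 1 library gave 949 to 2100 genes and 1 to 2 of the 9 genes in H1, and 25 to 53 genes between the H9 clones. It gave 3 to 4 of the 9 genes in clone 9-1 and in clone 9-D, and 2 to 4 for the difference between lines. DESeq2 also gave no call in H1 for TP73, POLH, CMBL and CHAC1 (adjusted p = 0.101, 0.108, 0.0667 and 0.0790). It called 0 endoderm markers lower in H1, so the SOX17 call was not given by DESeq2 either. MDM2 in clone 9-D passed without a filter on low counts (edgeR adjusted p = 0.0398) and without the second wild-type library (edgeR adjusted p = 0.0312). MDM2 in the difference between lines passed without the third 9-D library (edgeR adjusted p = 0.0342). The cause of these changes was not tested.

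Samples of the same replicate number had a correlation of deviations over 0.1 in 1 of 3 pairs in H1 (0.0361 to 0.116). In H9 this held for 0 of 9 pairs (-0.0267 to 0.0588). Samples of different numbers in H1 gave -0.106 to 0.0624. The numbers were not taken as pairing, but these values do not settle whether H1 libraries were paired. With the replicate block, H1 had 2929 genes called (1474 higher, 1455 lower) against 1827 without it. MDM2 in clone 9-D passed with the block (0.17, edgeR adjusted p = 0.0320).

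Leaving out 1 library turned the sign of some values that had not passed. On the log2 scale these ranged in H1 from -0.0404 to 0.0951 for MDM2, from -0.00343 to 0.0467 for AEN and from -0.161 to 0.0107 for RRM2B. RRM2B ranged from -0.00721 to 0.102 over both H9 clones and from -0.0235 to 0.154 in 9-D, and BAX from -0.0967 to 0.0412 in 9-D. Between 9-D and 9-1 the ranges were -0.0549 to 0.0251 for AEN, -0.0801 to 0.0846 for CDKN1A, -0.0419 to 0.0998 for BAX, -0.0915 to 0.0855 for RRM2B, -0.0747 to 0.203 for FAS and -0.0219 to 0.0344 for ZNF263. In the difference between lines, BAX ranged from -0.0388 to 0.0348 and ZNF263 from -0.00772 to 0.0751. FAS and GDF15 hold few counts, which limits their precision.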
